A study of Mus musculus with 4 samples.

Results

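Alpha and beta tubulin are the paired proteins from which microtubules are built, and the mouse genome holds several genes, or isotypes, for each. Described here are 10 of them: the alpha tubulin genes Tuba1a, Tuba1b and Tuba4a, and the beta tubulin genes Tubb2a, Tubb2b, Tubb3, Tubb4a, Tubb4b, Tubb5 and Tubb6. They were taken by gene name from a table of transcript levels and account for 10 of its 52327 gene names and 31 of its 160308 transcripts. Of the 31 transcripts, 25 carried an Ensembl identifier and 6 carried the prefix MSTRG, which marks assembled transcripts. RNA sequencing was done on the line 46C, derived from mouse embryonic stem cells and carrying a green fluorescent reporter in the Sox1 locus. The 2 rfISCs libraries came from cells kept in PIF medium, a state between the rosette stage and the formative stage of pluripotency, and the 2 ESCs libraries came from cells kept in 2i medium, which holds embryonic stem cells in the naive state. Estimated counts summed to 21499590 and 23780989 in the rfISCs libraries and to 19243701 and 21517544 in the ESCs libraries. Both groups were the same single line, and nothing in the labels tells if the 2 libraries of a group were grown apart. The p-values below therefore rest on a spread between libraries that could be technical alone.

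Microtubules are hollow polymers of alpha and beta tubulin dimers that form the mitotic spindle, carry cargo and give cells their polarity. The isotypes differ mostly in a short acidic tail at the end of the protein, which lies on the outside of the microtubule and is read by motors, by microtubule-associated proteins and by enzymes that add or remove amino acids there. Tuba1b and Tubb5 are made in most dividing cells, Tuba1a, Tubb2b and Tubb3 are best known from developing neurons, and Tubb4a is best known from brain, including its myelinating cells. Cells also sense their free tubulin dimers and degrade tubulin messages when dimers are in excess, through a factor that binds the first residues of the new chain.

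The coding sequence of the tails of 5 beta isotypes is shown because it shows how far reads from this region can be told apart. Each sequence is the last 60 coding bases with the stop codon, written 5′ to 3′ on the coding strand of GRCm38 and taken from the GENCODE M21 transcript with the longest coding sequence. Capitals mark bases that are not identical to the aligned base of the isotype named in brackets, or that have no aligned base in it.
Tubb2a (against Tubb2b; chr13:34074468-34074527, minus strand): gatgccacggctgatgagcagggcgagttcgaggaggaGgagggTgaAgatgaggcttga
Tubb2b (against Tubb2a; chr13:34127471-34127530, minus strand): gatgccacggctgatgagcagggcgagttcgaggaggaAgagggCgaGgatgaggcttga
Tubb3 (against Tubb5; chr8:123421623-123421682, plus strand): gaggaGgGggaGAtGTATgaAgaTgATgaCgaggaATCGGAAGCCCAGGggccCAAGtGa
Tubb4a (against Tubb4b; chr17:57080690-57080749, minus strand): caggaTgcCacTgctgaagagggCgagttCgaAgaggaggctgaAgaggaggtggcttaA
Tubb5 (against Tubb4b; chr17:35834982-35835041, minus strand): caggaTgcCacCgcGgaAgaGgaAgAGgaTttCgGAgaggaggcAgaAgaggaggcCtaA
The Tubb2a and Tubb2b tails differed at 3 of these 60 bases, and the Tubb4a tail differed from that of Tubb4b at 8. The Tubb3 tail differed from that of Tubb5 at 32, with any base that had no aligned Tubb5 base counted as different.

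Over the whole coding sequence, Tuba1a and Tuba1b were identical at 1333 of 1356 aligned bases (98.3%), and Tubb2a and Tubb2b at 1291 of 1338 (96.5%). The other pairs of these beta isotypes were 80.2% to 85.7% identical, and Tuba4a was 84.7% and 85.0% identical to Tuba1a and Tuba1b. Of all stretches of 100 bases in the transcript, 65.9% for Tuba1a and 73.0% for Tuba1b also occurred in a transcript of another gene, as did 36.9% for Tubb2a, 27.8% for Tubb2b and 30.6% for Tubb4b. No such stretch was shared by the annotated transcripts of Tubb3, Tubb4a, Tubb5 or Tubb6. Assembled transcripts were not searched, among them the one that held most of the Tubb4a TPM. Tuba1a and Tuba1b shared most stretches with Tuba1c (34.9% and 48.6%), followed by AC157548.1 (32.1% and 32.6%). Tubb2a and Tubb2b shared most with each other (35.9% and 26.1%). The division of reads among genes that share stretches was made by the authors' unnamed quantifier and is uncertain to that extent.

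The naive and formative markers of the libraries went the way that their labels imply. All 7 naive markers, among them Esrrb and Nanog, were lower in rfISCs, with summed levels of 858 and 843 CPM (counts relative to library size, with TMM scaling between libraries) in rfISCs and 3407 and 3471 in ESCs. All 6 formative markers, among them Otx2 and Fgf5, were higher, with summed CPM of 1181 and 1179 in rfISCs and 186 and 175 in ESCs. The 4 markers of pluripotent cells in general did not go one way. By log2 fold change in edgeR, Pou5f1 (-0.97) and Sox2 (-0.47) were lower in rfISCs, and Sall4 (0.98) and Utf1 (0.47) were higher. Since several isotypes are neuronal, markers of neural cells were read as well. Of 12 such markers 11 were tested by edgeR, and 8 were higher in rfISCs, 1 was lower and 2 did not pass, with a median log2 fold change of 1.98. Their summed CPM was 396 and 393 in rfISCs against 366 and 369 in ESCs, and 200.4 and 199 against 94.3 and 83.1 without Stmn2, the 1 that was lower. The early neural gene Sox1 stood at 38.2 and 35.2 CPM in rfISCs against 1.80 and 1.26 CPM in ESCs. Pax6 stood at 25.2 and 26.5 CPM in rfISCs against 2.34 and 0.728 CPM in ESCs, and the neuronal genes Map2 at 22.9 and 26.8 against 11.9 and 11.1 CPM and Elavl3 at 15.4 and 14.9 against 5.34 and 2.43 CPM. Dcx (0.731 and 0.663 CPM) and Neurog2 (0.183 and 0.538 CPM) were low in rfISCs and had no count in ESCs. The 2 that did not pass had negative log2 fold changes, -0.63 for Rbfox3 and -0.14 for Elavl4. Rbfox3 stood at 2.10 and 1.49 CPM in rfISCs against 3.43 and 2.14 in ESCs. With Ensembl transcripts alone its log2 fold change was 2.59 (adjusted p 0.0319 in edgeR). Markers of fibroblasts summed to 20.1 and 18.2 CPM in rfISCs against 5.29 and 8.25 in ESCs with Lum at 0, and edgeR called 4 of the 5 tested higher, among them Acta2 (5.89 and 3.52 CPM in rfISCs, no count in ESCs) and Col1a1 (3.56 and 3.64 CPM in rfISCs against 0.163 and 0.485 in ESCs). Those of primitive endoderm summed to 11.1 and 9.36 CPM in rfISCs against 3.98 and 4.95 in ESCs, with 2 of 3 tested called higher (1 without rfISCs replicate 1), among them Foxa2 (1.55 and 2.94 CPM in rfISCs against 0.0545 and 0.146 in ESCs). Those of trophoblast summed to 7.03 and 6.91 CPM in rfISCs against 4.58 and 6.70 in ESCs with Tpbpa at 0, and of 2 tested Gata3 was called higher (3.29 and 3.35 CPM in rfISCs against 0.109 and 0.291 in ESCs) and Eomes lower (2.97 and 2.48 CPM in rfISCs against 4.36 and 5.68 in ESCs), which missed the threshold when rfISCs replicate 2 or ESCs replicate 2 was left out. Of the primitive endoderm markers, Gata6, Sox17 and Sox7 were too low to be tested, with at most 4 counts in any library. The part of the cell types above in the isotype values below was not tested.

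All 10 isotypes passed edgeR's quasi-likelihood test at an adjusted p under 0.05 between rfISCs and ESCs, 7 of them higher in rfISCs and 3 lower. The same test called 53.7% of the 16355 genes tested, 27.3% higher and 26.4% lower, so that many genes differed between these cultures. The libraries of the 2 groups did not overlap in CPM for any of the 10 isotypes, which was so for 77.7% of all genes tested. The median log2 fold change of rfISCs over ESCs was 0.19 over the 10 isotypes and 0.00 over all genes tested. In bulk RNA a change in the number of cells that make a message and a change in the amount per cell cannot be told apart.

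**Figure D1:**
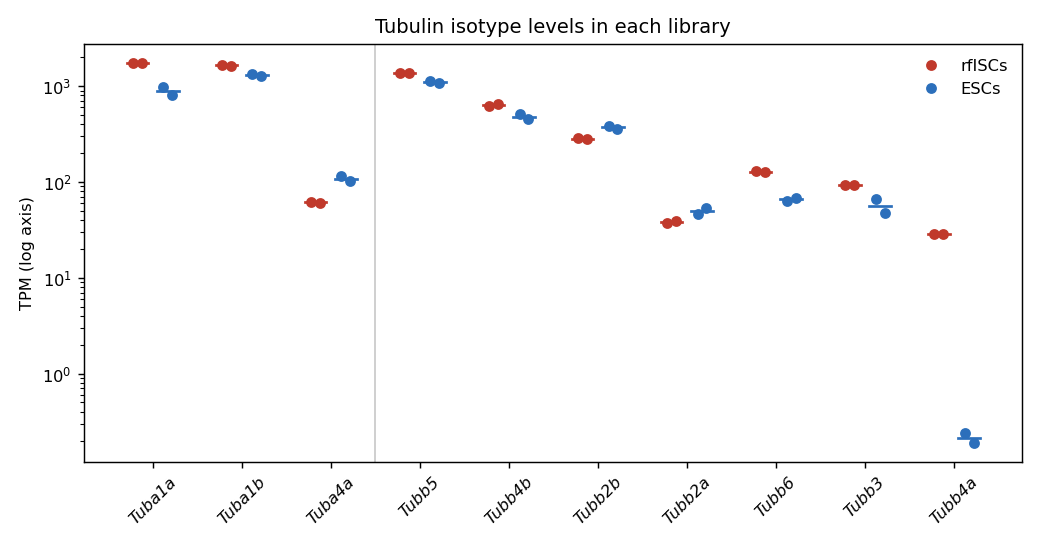
Level of each isotype in each library in TPM (a level per transcript length, on a log axis), rfISCs in red left of ESCs in blue, with a line at each group's mean of 2 libraries and a grey line between alpha and beta isotypes. Tubb4a stands at 28.8 and 28.7 TPM in rfISCs and at 0.24 and 0.19 TPM in ESCs, and the other 9 isotypes are abundant in both.

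Among the alpha isotypes, Tuba1a rose the most in rfISCs. It stood at 1968 and 1973 CPM in rfISCs, against 1244 and 1041 CPM in ESCs. The rfISCs libraries nearly coincided, the ESCs libraries were further apart, and the groups did not overlap. In edgeR this was a 1.72-fold rise, a log2 fold change of 0.79 with a standard error (SE) of 0.07 and an adjusted p of 1.65e-05.

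Tuba1b, the broadly expressed alpha isotype, stood at 1741 and 1702 CPM in rfISCs, against 1583 and 1544 CPM in ESCs. The difference was small but every rfISCs library was above both ESCs libraries. In edgeR this was a 1.10-fold rise, with a log2 fold change of 0.14 (SE 0.04) and an adjusted p of 0.0127. The log2 fold change was 0.13 without rfISCs replicate 1 and 0.15 without rfISCs replicate 2. The call was lost in both fits, whose spread came from the ESCs libraries alone. When Tuba1a, Tuba1b and their near copy Tuba1c were added together, so that reads shared between them no longer had to be divided, the sum was 4220 and 4207 CPM in rfISCs against 3461 and 3162 CPM in ESCs. That sum had a log2 fold change of 0.35 (SE 0.04) and an adjusted p of 0.000146 in edgeR. It did not include AC157548.1, which also shares stretches with Tuba1a and Tuba1b.

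Tuba4a, the alpha isotype whose message encodes no final tyrosine, went the other way. It stood at 64.5 and 68.0 CPM in rfISCs, against 137 and 135 CPM in ESCs. Both libraries of each group lay close together and the groups were far apart. The log2 fold change was -1.04 (SE 0.06), a 2.05-fold fall with an adjusted p of 1.56e-06 in edgeR. The gene Stk16, a kinase gene on the opposite strand, overlaps the 3′ part of the main Tuba4a transcripts, and whether the counting used strand is not given in the sources used here. Stk16 stood at 42.0 and 41.4 CPM in rfISCs, against 32.5 and 31.1 CPM in ESCs. It was thus higher in rfISCs (log2 fold change 0.39, SE 0.08, adjusted p 0.00355 in edgeR), the opposite direction to Tuba4a.

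Tubb4a showed the widest difference of the 10 isotypes. It stood at 40.0 and 40.0 CPM in rfISCs, from 875 and 967 counts, against 0.381 and 0.291 CPM in ESCs, from 7 and 6 counts. The gene was thus near the limit of detection in ESCs and clearly present in both rfISCs libraries. The log2 fold change was 6.88 (SE 0.19), a 118-fold rise with an adjusted p of 1.84e-08 in edgeR, and its size rests on those few ESCs counts. On the log2(TPM + 1) scale, where the added 1 is larger than the ESCs level, limma gave a log2 fold change of 4.61. Even so, Tubb4a remained the least abundant of the 10 isotypes in rfISCs, at 28.8 and 28.7 TPM.

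Tubb6, a broadly expressed beta isotype that is usually minor, and Tubb3, the isotype used as a marker of young neurons, also rose. Tubb6 stood at 140 and 140 CPM in rfISCs, against 77.1 and 84.2 CPM in ESCs. Its log2 fold change was 0.79 (SE 0.07), a 1.73-fold rise with an adjusted p of 1.10e-05 in edgeR, and the groups were well apart. Tubb3 stood at 108 and 110 CPM in rfISCs, against 87.2 and 62.4 CPM in ESCs, so that the ESCs libraries differed from each other by more than the nearer of them did from rfISCs. Its log2 fold change was 0.55 (SE 0.13), a 1.46-fold rise with an adjusted p of 0.00560 in edgeR. The size of the Tubb3 rise depended on the ESCs library used. Its log2 fold change was 0.81 when ESCs replicate 1 was left out and 0.32 when ESCs replicate 2 was left out.

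The beta isotypes with the highest TPM rose slightly. Tubb5, the main beta tubulin of dividing cells, stood at 2369 and 2376 CPM in rfISCs, against 2170 and 2076 CPM in ESCs. Its log2 fold change was 0.16 (SE 0.04), a 1.12-fold rise with an adjusted p of 0.00578 in edgeR. Tubb4b, found in most tissues and rich in cilia, stood at 600 and 632 CPM in rfISCs, against 553 and 499 CPM in ESCs. The groups did not overlap for either gene, though the gaps were narrow. Tubb4b had a log2 fold change of 0.23 (SE 0.06), a 1.17-fold rise with an adjusted p of 0.00947 in edgeR. It was 0.15 without ESCs replicate 2, and without rfISCs replicate 2 the call was lost (0.19, adjusted p 0.0781 in edgeR). A pseudogene, Tubb4b-ps1, shares 27.4% of the 100-base stretches of Tubb4b and had no count in any library.

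The close pair Tubb2a and Tubb2b, both known mainly from the nervous system, fell together. Tubb2b stood at 399 and 390 CPM in rfISCs, against 599 and 568 CPM in ESCs. Tubb2a stood at 36.3 and 38.8 CPM in rfISCs, against 51.5 and 58.9 CPM in ESCs. Both genes were lower in each rfISCs library than in either ESCs library, and by nearly the same factor. The log2 fold change was -0.56 (SE 0.05) for Tubb2b and -0.56 (SE 0.09) for Tubb2a, falls of 1.48-fold and 1.47-fold with adjusted p of 1.36e-05 and 0.000794 in edgeR. Added together, the pair stood at 436 and 429 CPM in rfISCs against 650 and 627 CPM in ESCs, with a log2 fold change of -0.56 (SE 0.05) and an adjusted p of 9.37e-06 in edgeR.

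**Figure D2:**
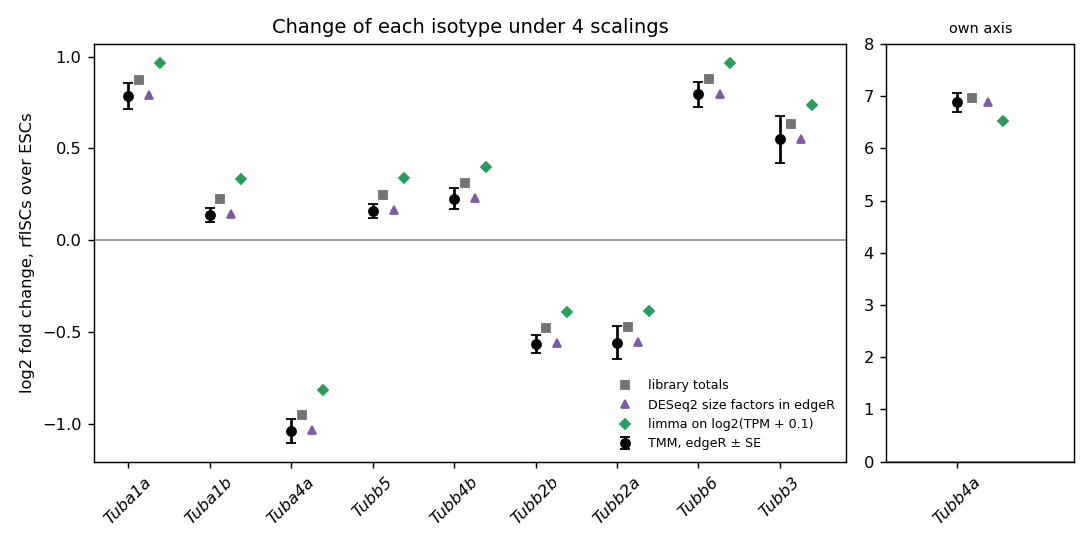
Log2 fold change of each isotype, rfISCs over ESCs, under TMM scaling in edgeR (black circles, bars are ± SE of the fit over 2 libraries per group), library totals (grey squares), DESeq2 size factors in edgeR (purple triangles) and limma on log2(TPM + 0.1) (green diamonds), with Tubb4a on an axis of its own. The direction of every isotype was the same under these 4 scalings, and TPM values were shifted upwards, by 0.16 at the median of all genes.

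Read per length in TPM, the order of the isotypes differed between the cultures. In rfISCs the order was Tuba1a (1739 TPM on average), Tuba1b (1657), Tubb5 (1384), Tubb4b (633), Tubb2b (284), Tubb6 (128), Tubb3 (93.2), Tuba4a (61.3), Tubb2a (38.0) and Tubb4a (28.7), and no neighbours in it overlapped. In ESCs the order by mean TPM was Tuba1b (1313), Tubb5 (1094), Tuba1a (894), Tubb4b (481), Tubb2b (373), Tuba4a (108), Tubb6 (65.6), Tubb3 (56.7), Tubb2a (49.8) and Tubb4a (0.215). In ESCs Tubb3 overlapped with its neighbours Tubb6 and Tubb2a, so the place of those 3 is not settled. The first place of Tuba1a in rfISCs held only with its assembled transcript counted. With Ensembl transcripts alone it stood at 1362 and 1362 TPM in rfISCs, against 687 and 528 TPM in ESCs, below Tuba1b and Tubb5 in both cultures. Tuba4a stood above Tubb6 and Tubb3 in both ESCs libraries and below them in both rfISCs libraries.

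The summed levels of both families were higher in rfISCs. The 8 alpha tubulin genes of the table summed to 3926 and 3880 TPM in rfISCs, against 2918 and 2641 TPM in ESCs, a 1.41-fold difference. The 8 beta tubulin genes summed to 2580 and 2598 TPM in rfISCs, against 2186 and 2054 TPM in ESCs, a 1.22-fold difference. The groups did not overlap for either sum, and an exact two-sided permutation test gave p = 0.333 for each, the smallest that 2 libraries against 2 allow. On the log2 scale these differences were 0.49 and 0.29 in TPM and 0.31 and 0.11 in TMM-scaled CPM, while the median gene moved by 0.15 on the log2(TPM + 1) scale and 0.00 in CPM. The ratio of alpha to beta tubulin TPM was 1.52 and 1.49 in rfISCs, against 1.34 and 1.29 in ESCs (exact permutation p = 0.333). Alpha and beta tubulin messages together made up 0.663% and 0.661% of the TPM of named genes in rfISCs, against 0.522% and 0.480% in ESCs.

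Tuba1a held a larger part of the alpha family in rfISCs. It held 44.5% and 44.7% of alpha tubulin TPM in rfISCs, against 33.5% and 30.8% in ESCs. Tuba1b held 42.8% and 42.0% in rfISCs, against 45.8% and 48.8% in ESCs, a lower share although its level was higher. The share of Tuba1c was 10.4% and 10.9% in rfISCs, against 15.5% and 15.4% in ESCs, and that of Tuba4a was 1.57% and 1.57% in rfISCs, against 3.94% and 3.84% in ESCs. None of these shares overlapped between the groups, with an exact two-sided permutation p of 0.333 for each.

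Within the beta family the share of Tubb2b differed the most. Its share of beta tubulin TPM was 11.2% and 10.8% in rfISCs, against 17.6% and 17.6% in ESCs. Tubb5 held 53.7% and 53.2% in rfISCs, against 51.2% and 52.0% in ESCs, and Tubb4b averaged 24.4% ± 0.64 in rfISCs and 22.7% ± 0.71 in ESCs (SD, n = 2 each). These main isotypes differed by under 2 percentage points between the cultures. The share of Tubb6 was 4.99% and 4.91% in rfISCs, against 2.88% and 3.33% in ESCs, and that of Tubb3 was 3.60% and 3.61% in rfISCs, against 3.03% and 2.29% in ESCs. Tubb4a reached 1.12% and 1.10% of beta tubulin TPM in rfISCs, against 0.0110% and 0.00925% in ESCs, so that its 118-fold rise moved the family total little. Tubb2a held 1.43% and 1.51% in rfISCs, against 2.13% and 2.58% in ESCs. The exact two-sided permutation p was 0.333 for each of these shares.

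**Figure D3:**
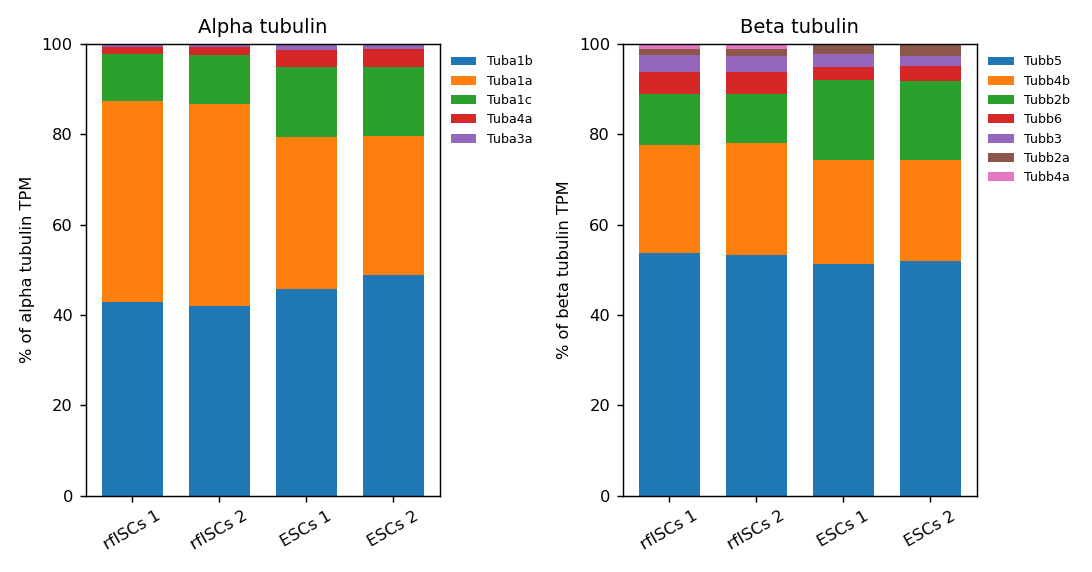
Share of each gene in the summed TPM of alpha tubulin (left) and beta tubulin (right), in percent, 1 stacked bar per library with the rfISCs libraries left of the ESCs libraries; genes with a share under 0.1% in every library are not drawn. The Tuba1a band is 44.5% and 44.7% of alpha tubulin in rfISCs and 33.5% and 30.8% in ESCs, and the Tubb2b band is 11.2% and 10.8% of beta tubulin in rfISCs and 17.6% and 17.6% in ESCs.

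Of the 31 transcripts of the isotypes, 22 had enough counts for a test, and the other 9 had at most 25 counts and 1.63 TPM in any library. Taken transcript by transcript, edgeR called 4 of the 22, 3 higher and 1 lower, whereas it called 3.68% of all 50163 transcripts tested, 1.74% higher and 1.94% lower. The groups did not overlap in CPM for 20 of the 22, against 56.2% of all transcripts tested. Before adjustment 16 of the 22 had p under 0.05, against 11426 of all 50163 transcripts tested. The calls were ENSMUST00000097014 of Tuba1a, MSTRG.11300.1 of Tubb4a and ENSMUST00000001513 of Tubb6, which were higher in rfISCs, and ENSMUST00000075774 of Tubb2b, which was lower. None of these 4 calls held when any 1 library was left out, which lowered the number of calls to 0 among all transcripts.

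Most of the Tuba1a level came from the annotated transcript, ENSMUST00000097014, which stood at 1362 and 1362 TPM in rfISCs, against 687 and 528 TPM in ESCs (log2 fold change 1.03, SE 0.13, adjusted p 0.0458 in edgeR). An assembled transcript of the same gene, MSTRG.9359.1, stood at 381 and 368 TPM in rfISCs, against 288 and 283 TPM in ESCs (log2 fold change 0.25, SE 0.04, adjusted p 0.0598 in edgeR). The assembled form made up 21.8% and 21.2% of Tuba1a TPM in rfISCs, against 29.5% and 34.9% in ESCs, and the spread between the ESCs libraries of Tuba1a lay in the annotated form. For Tuba1b the coding transcript ENSMUST00000077577 held 95.0% and 94.9% of its TPM in rfISCs and 96.8% and 97.8% in ESCs. A short transcript with a retained intron, ENSMUST00000140969, stood at 83.3 and 83.0 TPM in rfISCs, against 42.9 and 28.6 TPM in ESCs (log2 fold change 1.13, SE 0.27, adjusted p 0.109 in edgeR).

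Tuba4a was spread over 4 transcripts, each of which was lower in both rfISCs libraries than in either ESCs library, and none passed the test alone. The coding transcript ENSMUST00000079464 stood at 10.5 and 12.7 TPM in rfISCs, against 35.4 and 26.1 TPM in ESCs (log2 fold change -1.53, SE 0.21, adjusted p 0.0515 in edgeR). The longer coding transcript ENSMUST00000186213 stood at 17.1 and 17.8 TPM in rfISCs, against 25.5 and 32.2 TPM in ESCs (log2 fold change -0.87, SE 0.16, adjusted p 0.0770). These are the transcripts that overlap Stk16, over 27.0% and 46.7% of their 100-base stretches. The other 2, which do not overlap it, were ENSMUST00000188593 at 16.6 and 17.0 TPM in rfISCs against 18.5 and 24.6 TPM in ESCs (log2 fold change -0.49), and the retained-intron form ENSMUST00000187103 at 17.1 and 13.4 TPM in rfISCs against 33.1 and 17.9 TPM in ESCs (log2 fold change -0.86).

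The Tubb4a signal of rfISCs lay mainly in an assembled transcript, MSTRG.11300.1. It stood at 25.6 and 26.3 TPM in rfISCs, against 0.24 and 0.19 TPM in ESCs (log2 fold change 6.76, SE 0.22, adjusted p 0.0187 in edgeR), and held 88.6% and 91.7% of the Tubb4a TPM in rfISCs. The annotated transcript had 102 and 83 counts in rfISCs and no count in ESCs. Against a floor of 3 counts over the ESCs group, which covers counting error only, it was at least 51.7-fold higher in rfISCs. With Ensembl transcripts alone the rise of the Tubb4a share of beta tubulin TPM was 0.111 percentage points, against 1.10 with the assembled transcript. In the authors' deposited table these 2 transcripts of Tubb4a, with ratios of 111 for the assembled and 441 for the annotated form, were the only transcripts of the 10 isotypes marked as significant. The rule for that mark is not given in the sources used here. Unmarked transcripts also had small adjusted p in the authors' unnamed test, such as 2.64e-42 for ENSMUST00000075774 of Tubb2b and 2.92e-19 for ENSMUST00000097014 of Tuba1a.

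Tubb5, Tubb4b, Tubb2b and Tubb6 were each nearly 1 transcript. The coding transcript ENSMUST00000001566 of Tubb5 held 98.4% and 98.0% of its TPM in rfISCs and 98.9% and 98.4% in ESCs, at 1363 and 1354 TPM in rfISCs against 1107 and 1052 TPM in ESCs (log2 fold change 0.19, SE 0.03, adjusted p 0.0528 in edgeR). Its minor transcript ENSMUST00000173253, with a retained intron, stood at 7.98 and 11.6 TPM in rfISCs, against 2.27 and 3.08 TPM in ESCs (log2 fold change 1.72, SE 0.44, adjusted p 0.121). Another retained-intron form, ENSMUST00000156050, overlapped between the groups at 7.17 and 11.4 TPM in rfISCs against 7.24 and 11.7 TPM in ESCs, and the short coding form ENSMUST00000134978 stood at 7.40 and 5.26 TPM in rfISCs against 2.57 and 1.94 TPM in ESCs. The coding transcript ENSMUST00000043584 of Tubb4b stood at 613 and 640 TPM in rfISCs, against 503 and 451 TPM in ESCs (adjusted p 0.110 in edgeR), and its noncoding transcript ENSMUST00000145607 at 5.86 and 6.48 TPM in rfISCs, against 3.66 and 4.15 TPM in ESCs.

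For Tubb2b the coding transcript ENSMUST00000075774 stood at 281 and 271 TPM in rfISCs, against 374 and 357 TPM in ESCs (log2 fold change -0.54, SE 0.04, adjusted p 0.0244 in edgeR). The assembled MSTRG.6339.2 of the same gene overlapped between the groups, at 7.07 and 8.11 TPM in rfISCs and 9.32 and 2.26 TPM in ESCs. Tubb6 was read from ENSMUST00000001513, at 128 and 127 TPM in rfISCs against 62.7 and 68.2 TPM in ESCs (log2 fold change 0.83, SE 0.08, adjusted p 0.0342 in edgeR). Tubb2a and Tubb3 had 1 tested transcript each, ENSMUST00000056427 (log2 fold change -0.52, adjusted p 0.105 in edgeR) and ENSMUST00000071134 (log2 fold change 0.58, adjusted p 0.166), with the directions of their genes.

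**Figure D4:**
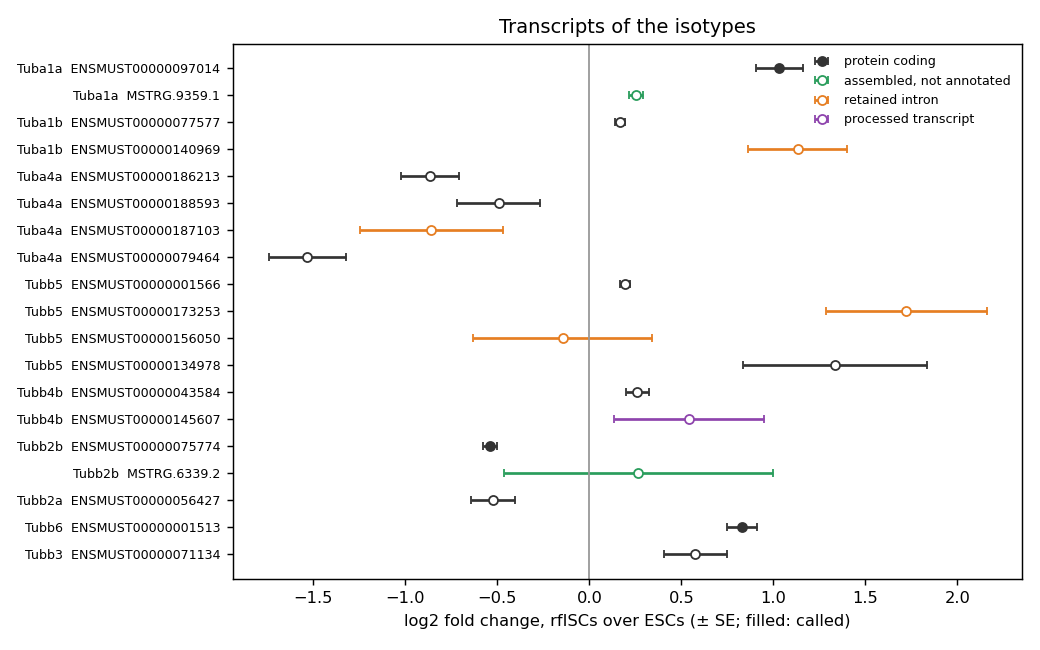
Log2 fold change, rfISCs over ESCs, of the transcripts with a mean of at least 5 TPM in either group, except that of Tubb4a at 6.76; bars are ± SE of the edgeR fit over 2 libraries per group, filled circles passed the test, and colours give the GENCODE class. The 4 transcripts of Tuba4a all lie below 0, and the retained-intron transcripts of Tuba1b (1.13) and Tubb5 (1.72 and -0.15) are spread to both sides.

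Other tubulin genes were low or differed little in size. For the counts that follow, edgeR called 27.3% of all genes tested higher in rfISCs and 26.4% lower. Of 10 further members of the superfamily 7 were tested by edgeR, and 1 was higher in rfISCs, 2 were lower and 4 did not pass, with a median log2 fold change of -0.21 against 0.00 for all genes. None was lower and the median was -0.14 without rfISCs replicate 1, and none was higher without rfISCs replicate 2. Tubal3 and Tubb1, the beta tubulin of platelets, had no count, and Tuba8 had at most 5. Gamma tubulin Tubg1, which seeds microtubules, stood at 54.1 and 62.5 CPM in rfISCs, against 44.5 and 50.2 CPM in ESCs (log2 fold change 0.30, SE 0.10, adjusted p 0.0268 in edgeR), and this call was lost without rfISCs replicate 2 (0.19, adjusted p 0.263) and with Ensembl transcripts alone (0.33, adjusted p 0.0816). Tuba1c stood at 511 and 532 CPM in rfISCs, against 634 and 576 CPM in ESCs (log2 fold change -0.21, SE 0.06, adjusted p 0.0102 in edgeR). The Tuba1c call was lost without rfISCs replicate 1 (-0.18, adjusted p 0.0879 in edgeR), with library totals (-0.13, adjusted p 0.0731) and with limma on log2(TPM + 1) (-0.04, adjusted p 0.642). The testis-type gene Tuba3a fell by 0.44 (SE 0.11, adjusted p 0.00722 in edgeR), a call lost without rfISCs replicate 1 (-0.36, adjusted p 0.0531) and with limma on log2(TPM + 1) (-0.26, adjusted p 0.114).

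Genes that fold tubulin and adjust its supply did not move one way. Of 11 such genes 3 were higher in rfISCs, 3 lower and 5 did not pass, against 27.3% higher and 26.4% lower among all genes tested. The median log2 fold change of the 11 was -0.13, which was 0.08 with limma on log2(TPM + 1) and -0.03 without ESCs replicate 1. Without rfISCs replicate 2 only 1 was higher. The cofactors Tbca and Tbcb, which hold beta and alpha tubulin during folding, rose by 0.35 (SE 0.07, adjusted p 0.00275 in edgeR) and 0.39 (SE 0.10, adjusted p 0.00721). The Tbcb call was lost without rfISCs replicate 2 (0.33, adjusted p 0.0573 in edgeR) and with Ensembl transcripts alone (0.37, adjusted p 0.102). Tbce, another cofactor of dimer assembly, fell by 0.49 (SE 0.08, adjusted p 0.000937 in edgeR), but not with limma on log2(TPM + 1) (-0.33, adjusted p 0.105). Of the autoregulation genes, Ttc5, which binds the first residues of new tubulin chains, had a log2 fold change of -0.15 (adjusted p 0.0870 in edgeR) and Cnot11, of the deadenylase it recruits, -0.02 (adjusted p 0.816). Scaper, the adaptor between them, stood at 5.58 and 4.75 TPM in rfISCs, against 7.26 and 8.11 TPM in ESCs (log2 fold change -0.80, SE 0.11, adjusted p 0.000296 in edgeR), a call lost with Ensembl transcripts alone (-0.72, adjusted p 0.133). The first coding bases of Tubb5, which encode the first residues of its chain, are atgAGGGAAATC (chr17:35838042-35838053, minus strand), with the codons after the start in capitals.

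Enzymes that modify tubulin differed in both directions. Of 21 such genes 19 were tested, and 8 were higher in rfISCs, 4 lower and 7 did not pass. The shares among all genes tested were 27.3% higher and 26.4% lower. The median log2 fold change of the 19 enzymes was 0.29. With Ensembl transcripts alone 4 were higher and 3 lower. Vash2 and Vash1 encode vasohibins, which remove the final tyrosine of alpha tubulin. Vash2 stood at 16.2 and 13.7 CPM in rfISCs, against 1.04 and 1.46 CPM in ESCs (log2 fold change 3.57, SE 0.23, adjusted p 1.94e-06 in edgeR). Vash1 stood at 12.1 and 10.8 CPM in rfISCs, against 4.36 and 4.27 CPM in ESCs (log2 fold change 1.40, SE 0.18, adjusted p 0.000144), but with Ensembl transcripts alone its log2 fold change was -0.34 (adjusted p 0.784), so that the rise was not seen without the assembled transcripts. Ttl, the ligase that puts the tyrosine back, stood at 24.6 and 26.0 CPM in rfISCs, against 41.5 and 41.1 CPM in ESCs (log2 fold change -0.71, SE 0.09, adjusted p 0.000136 in edgeR). Ttll3, a glycylating enzyme, fell by 1.51 (SE 0.19, adjusted p 0.000165 in edgeR).

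Dclk1 and Map1a rose, and Map7 and Stmn2 fell, among genes whose proteins bind microtubules or tubulin dimers. Of 26 microtubule-associated and stathmin genes 25 were tested by edgeR, and 16 were higher in rfISCs, 3 lower and 6 did not pass. Among all genes tested 27.3% were higher and 26.4% lower. The median log2 fold change of the 25 genes was 0.45, the same with Dcx, which had no count in ESCs, at its floor of 3 counts over the group. Dclk1, a doublecortin-like kinase, stood at 11.4 and 11.8 CPM in rfISCs, against 0.272 and 0.243 CPM in ESCs (log2 fold change 5.47, SE 0.28, adjusted p 5.13e-07 in edgeR). Map1a, a microtubule-stabilising protein of neurons, stood at 39.4 and 39.5 CPM in rfISCs, against 5.61 and 4.95 CPM in ESCs (log2 fold change 2.90, SE 0.12, adjusted p 1.52e-07). Map7, which recruits kinesin, stood at 26.6 and 27.0 CPM in rfISCs, against 103 and 96.1 CPM in ESCs (log2 fold change -1.89, SE 0.08, adjusted p 1.50e-07). Stmn2, a tubulin-binding protein of growing axons, fell by 0.52 (SE 0.05, adjusted p 4.42e-05 in edgeR) although it is counted among the neural markers above.

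Genes of nucleation and severing were called in both directions, against 27.3% higher and 26.4% lower among all genes tested. Of 8 genes of the gamma-tubulin ring complex 3 were higher in rfISCs, 1 lower and 4 did not pass, with a median log2 fold change of 0.07, which was 0.15 with library totals and 0.31 with limma on log2(TPM + 1). It was 0.02 without rfISCs replicate 1 and 0.12 without rfISCs replicate 2, with 0 lower in each, and 2 were lower without ESCs replicate 2. The subunits Tubgcp6 and Tubgcp2 rose by 0.37 (SE 0.07, adjusted p 0.00215 in edgeR) and 0.33 (SE 0.07, adjusted p 0.00457), the second not without rfISCs replicate 2 (0.28, adjusted p 0.0722). The small subunit Mzt1 had a log2 fold change of -0.20 (SE 0.07, adjusted p 0.0339 in edgeR) that was lost in 6 alternatives, with adjusted p of 0.0764 and 0.314 without rfISCs replicates 1 and 2. Of 8 severing genes 3 were higher, 2 lower and 3 did not pass, with a median of -0.05, which was 0.04 with library totals and with limma on log2(TPM + 1) and 0.13 with Ensembl transcripts alone. Leaving out 1 library gave medians of -0.12 and 0.13 without ESCs replicates 1 and 2, and of 0.02 and -0.09 without rfISCs replicates 1 and 2, with 1 gene lower in each of these last fits. Fign, a severing enzyme of the AAA family, rose by 1.84 (SE 0.26, adjusted p 0.000283 in edgeR), and its relative Fignl1 fell by 0.45 (SE 0.07, adjusted p 0.000581). The calls of Spast (0.25, adjusted p 0.0274 in edgeR) and Katnbl1 (-0.30, adjusted p 0.0105) were each lost without rfISCs replicate 1 (adjusted p 0.238 and 0.0904), without rfISCs replicate 2 (0.0559 and 0.0529) and with limma on log2(TPM + 1) (0.0595 and 0.363).

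**Figure D5:**
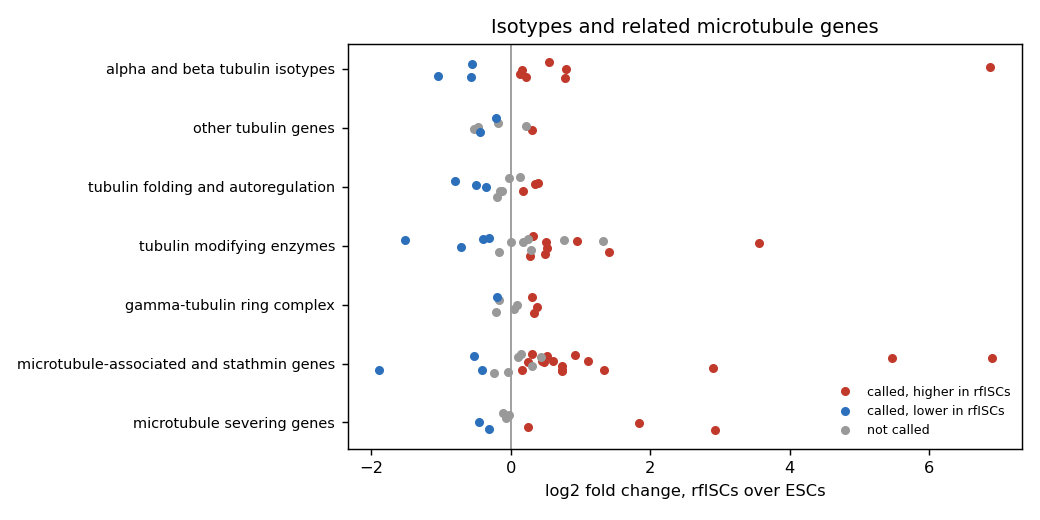
Log2 fold change, rfISCs over ESCs, of each tested gene in the isotype set and in 6 lists of related microtubule genes; red passed the edgeR test and was higher in rfISCs, blue passed and was lower, grey did not pass, and the vertical scatter within a list has no meaning. Microtubule-associated and stathmin genes hold 16 red and 3 blue points, and Dcx, plotted near 6.90 among them, had no count in ESCs, so that its place depends on the count added by the fit.

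The genes whose pattern over the 4 libraries was closest to that of Tubb4a were sought among the 11275 genes that averaged 5 CPM or more, by Euclidean distance between centred log2(CPM + 1) values. They were Thbs1, a secreted matrix glycoprotein, at a distance of 0.0397, the small GTPase gene Arl4c at 0.223, and Cyp26a1, which breaks down retinoic acid, at 0.246. Thbs1 stood at 39.0 and 39.0 CPM in rfISCs, against 0.381 and 0.243 CPM in ESCs. The likeness rests on 4 libraries in 2 groups.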

How the data were processed

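RNA was sequenced from 2 rfISCs and 2 ESCs libraries. In the deposited table each row is a transcript, with estimated counts and TPM per library. Per the file headers it also holds the authors' fold change as a ratio and as log2, with raw and adjusted p-values. Bowtie 0.12.2 and mm9 are named, without a role, by the submitters' processing notes; the quantifier, assembler, annotation and strand setting are not given in the sources used here. All 25 Ensembl transcripts of the isotypes matched GENCODE M21 in name and length, so the build of the table is not settled, and coordinates are those of the GRCm38 sequences printed.

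Estimated counts were summed per gene name and rounded. The 3382 transcripts without a gene name were left out; they held 1.27% and 1.22% of counts in rfISCs and 1.58% and 1.62% in ESCs. The test was edgeR 4.0.16 (R 4.3.3), quasi-likelihood with TMM scaling, filterByExpr (minimum count 10) and group as the only term, with Benjamini-Hochberg adjustment over all genes or transcripts tested and a threshold of 0.05. CPM are TMM-scaled. Alternatives used limma 3.58.1, DESeq2 1.42.0, other scalings, filters and pseudocounts, Ensembl transcripts alone, isotypes added together and each library left out. A fit with a library left out takes its spread from the other group alone. Its p-value does not measure the spread of the cut group, so calls kept or lost depend on which group was cut. The test was also run on simulated counts, with levels and spread taken from these data. It recovered 76.1%, 97.0% and 100% of genes changed 1.5-fold, 2-fold and 4-fold. Of transcripts changed by these factors it recovered 0%, 0% and 10.6%. The simulation changed 200 of 16355 genes and 200 of 50163 transcripts. In the real data 8783 genes and 1844 transcripts were called, so these rates need not hold there. A transcript that did not pass may still differ. Single values had an exact permutation test.

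Replicates differed by more than sampling noise (chi-square per degree of freedom 4.55 in rfISCs and 6.71 in ESCs, over genes with at least 20 counts). The isotypes, the related lists and the marker lists were chosen with earlier results of these data known. All 10 isotypes were named, transcripts of at least 5 TPM in a group, and from each related list up to 4 called genes of at least 5 CPM, those with the 2 largest rises and 2 largest falls. Other genes named in those lists, and the tested transcript of Tubb4a below 5 TPM, were added after their values were seen. Sequences were read from GENCODE M21 by transcript name; those of the alpha isotypes, Tubb4b and Tubb6 are not reported here.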

Additional observations from a re-analysis of the deposited data

How the results depend on the processing

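At the gene level the number of calls was 8783, and 6808 to 9284 when 1 library was left out. Limma on log2(TPM + 1) with no filter called 5219, and in that setting Tubb2a (-0.38, adjusted p 0.0595) and Tubb3 (0.73, adjusted p 0.0683) were lost. The share of calls that were higher in rfISCs came to 50.9% under TMM, 59.2% under library totals and 66.3% under limma on log2(TPM + 1). No isotype changed direction in any of its 14 alternatives. Isotypes called higher were 6 without rfISCs replicate 1 and 5 without rfISCs replicate 2, with 3 lower in both. Transcript calls depended strongly on the setting. DESeq2's Wald test called 11347 transcripts against 1844, with 12 transcripts of the isotypes higher and 4 lower. Library totals gave 7 higher, with 1059 higher among all 50163 transcripts tested. No filter gave 5 higher and 2 lower, with 1343 higher and 1351 lower among all 94075. With each library left out in turn edgeR called 0 transcripts (0 to 0, of the isotypes 0 higher and 0 lower), although 8924 to 10501 had an unadjusted p under 0.05, among them 11 to 16 of the isotypes. With the replicate number as a block edgeR called 0 transcripts (0 higher and 0 lower of the isotypes), with 8611 at an unadjusted p under 0.05; at the gene level the block called 8822. Same-numbered libraries did not deviate together (correlation 0.0065 over 16355 genes), so the numbers give no pairing. Transcripts that reversed, none of them called, were MSTRG.6339.2 (-0.41) and ENSMUST00000156050 (0.25) without ESCs replicate 2, and ENSMUST00000156050 (0.16) without rfISCs replicate 1; over the 4 fits the range was -0.41 to 1.59 for MSTRG.6339.2 and -0.53 to 0.25 for ENSMUST00000156050. The cause of these differences was not tested. Low ESCs counts limit the precision of Tubb4a.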
